A study of Drosophila melanogaster with 10 samples.

Results

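The nuclear genes of respiratory complexes I, II and III and of the ATP synthase (complex V) were followed across 10 arrays of Drosophila eye-antenna discs, larval epithelia from which the eye and antenna of the adult develop. Members were the genes whose only symbol in the platform annotation starts with ND- (complex I), Sdh (complex II), UQCR- (complex III) or ATPsyn (complex V), together with ox and Cyt-c1 of complex III, and the COX genes of complex IV were left out. The rule gave 61 of the 11982 genes with a single-gene probe set, of which 32 belonged to complex I, 7 to complex II, 8 to complex III and 14 to complex V. Testing required a value above 4.66 log2 units, the 40th percentile of all values, on 2 or more arrays, and 53 members passed (30, 5, 6 and 12 in the same order) among 8702 genes tested.

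Discs were pooled, 20 to 30 per sample, from early third-instar larvae 96 h after egg laying, with 2 biological replicates per genotype. Every genotype carried ey-Gal4, which drives UAS transgenes under control of the eyeless enhancer, and the arrays average over whole discs. In the COX7a RNAi discs ey-Gal4 drove UAS-COX7a-RNAi (v106661), a single hairpin line. In the Delta with COX7a RNAi discs it drove UAS-Delta together with the same hairpin, and in the Notch intra2 discs UAS-Notch[intra2], an intracellular form of the Notch receptor. The Delta discs expressed UAS-Delta, which encodes a Notch ligand, together with UAS-GFP. The control discs, called GFP here, expressed UAS-GFP alone. Values are deposited log2 expression values (RMA), so a difference of 1 is a doubling of signal on the linear scale, and levels are compared between arrays for 1 probe set and never between genes.

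Complexes I and II pass electrons from NADH and succinate to ubiquinone, complex III passes them on to cytochrome c, and complex IV, to which COX7a belongs, hands them to oxygen. Complexes I, III and IV pump protons across the inner mitochondrial membrane, and complex V uses the gradient to make ATP. Most of their subunits are encoded in the nucleus. In Drosophila many of these genes have a duplicated paralog that is expressed mainly in the testis. The comparison of COX7a RNAi with control discs asks how transcripts of the other complexes stood when a subunit of complex IV was knocked down, alone or under Delta overexpression.

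The hairpin lowered its own target on every array that carried it. COX7A read 10.50 and 10.54 in COX7a RNAi discs, 10.88 and 11.20 in Delta with COX7a RNAi discs, 13.17 and 13.17 in Notch intra2 discs, 13.21 and 13.29 in Delta discs and 13.41 and 13.32 in GFP discs. The differences were -2.85 for COX7a RNAi against GFP (limma adjusted p = 5.18e-06) and -2.21 for Delta with COX7a RNAi against Delta (limma adjusted p = 1.37e-05). Replicates correlated across genes with r between 0.9953 and 0.9966. Of 7 disc markers, ey, toy, so, eya, Optix and dac read between 10.45 and 12.88 on all arrays. The other, the antennal gene Dll, read 7.42 and 7.06 in Notch intra2 discs, against 9.66 and 9.73 in GFP discs. Markers of muscle, trachea and glia were also present.

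Of the 53 tested members, 52 lay above the floor on all 10 arrays, and the exception, ATPsynbetaL, did so on 8. Their mean signals lay between 4.79 and 13.75 log2 units, which does not rank the genes, since each was read by its own probe set. The 8 members that were not tested read between 2.91 and 4.74. They were 7 duplicated paralogs (ND-B14.5AL, SdhAL, SdhBL, UQCR-11L, UQCR-14L, ATPsynCF6L and ATPsynGL) and ND-B8, whose probe set stayed between 2.91 and 3.26. The median residual SD was 0.0564 log2 units for the members, against 0.0798 for all genes tested.

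Single arrays stood apart for these genes. Each member was set against its own mean over the 10 arrays. The median of these deviations was 0.05 and -0.01 in the 2 COX7a RNAi arrays, -0.02 and 0.07 in the Delta with COX7a RNAi arrays, -0.11 and -0.04 in the Notch intra2 arrays, 0.03 and 0.03 in the Delta arrays and 0.0015 and -0.01 in the GFP arrays. Over all genes tested, no array's median deviated by more than 0.02. The first Notch intra2 array was the lowest of the 10 for 33 of 53 members (62.3%, against 11.9% of all genes). The second Delta with COX7a RNAi array was the highest for 22 members (41.5%, against 12.5%) and the first COX7a RNAi array for 14 (26.4%, against 9.79%). The replicates of COX7a RNAi and those of Delta with COX7a RNAi lay on opposite sides of 0, and results that rest on these arrays are given with and without them.

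**Figure D1:**
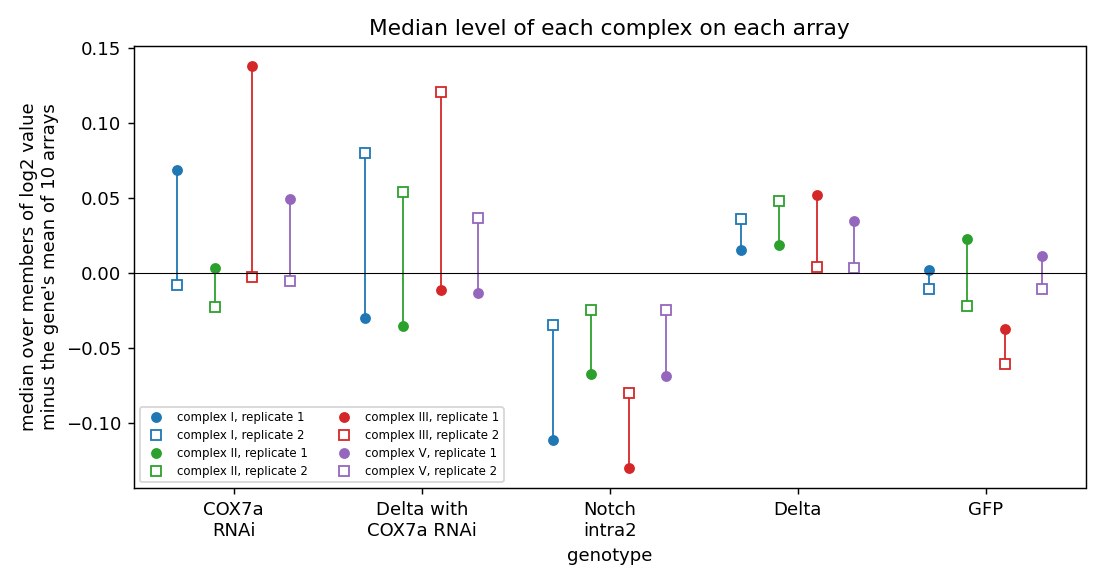
Median over the tested members of each complex of the log2 value minus the gene's mean of 10 arrays (y axis), by genotype (x axis). Filled circles are replicate 1, open squares are replicate 2 and the line joins them. Both Notch intra2 arrays lie below 0 in all 4 complexes, while the replicates of both hairpin genotypes lie on opposite sides of 0 in each complex, those of COX7a RNAi close together in complex II (0.0037 and -0.02).

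Knockdown of COX7a alone left the transcripts of the other complexes, each read by its chosen probe set, without a called change. In COX7a RNAi against GFP discs, 0 of 53 members passed limma's test at an adjusted p of 0.05, against 4.53% of all genes tested. At an unadjusted p of 0.05, 8 members were higher and 1 was lower by the same test, against 9.49% and 7.18% of all genes. Both COX7a RNAi arrays lay above both GFP arrays for 19 members and below them for 7, which held for 24.6% and 22.9% of all genes. The median member difference was 0.01, that of all genes 0.0027, and 33 members were positive (62.3%, against 50.8% of all genes). For 45 members (84.9%) the 95% interval of the difference lay within a 1.25-fold change either way, a share that was 59.5% over all genes. Without the first COX7a RNAi array the median was 0.0068. Without the second, where the count of 0 did not hold, it was 0.05. The 8 whose interval reached past that bound were ND-20L, ND-24L, ND-51L1, ND-75, ND-B12, ox, UQCR-11 and UQCR-6.4. The mean log2 value over 4 tracheal genes was 9.96 and 10.03 in COX7a RNAi discs, against 10.31 and 10.23 in GFP discs, and 2 of them, Gasp and serp, were called lower by limma. The part of these cells in the member values was not tested. Signal comes from whole discs, so fewer cells of a type and less RNA per cell cannot be told apart.

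Complex III had the highest median of the 4 complexes in that comparison, 0.13 over 6 tested members, of which 5 were positive. Without the first COX7a RNAi array that median was 0.06, and without the second 0.20. The gene ox encodes a small subunit, the counterpart of mammalian UQCR10. It read 12.41 and 12.21 in COX7a RNAi discs, against 12.12 and 12.04 in GFP discs. The groups did not overlap, and the difference was 0.23 ± 0.07 (SE, n = 2 each; limma adjusted p = 0.127). UQCR-6.4, the counterpart of mammalian UQCR11, had a difference of 0.17 ± 0.08 (limma adjusted p = 0.346), and its values were 13.00 and 12.83 in COX7a RNAi discs, against 12.75 and 12.73 in GFP discs, without overlap. UQCR-14, the counterpart of mammalian UQCRB, was the second lowest of the complex at 0.0047. UQCR-11, the counterpart of the mammalian hinge protein UQCRH, was the lowest member of all at -0.21 ± 0.15 (limma adjusted p = 0.558). It read 6.39 and 6.23 in COX7a RNAi discs, against 6.68 and 6.35 in GFP discs, and the groups overlapped.

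In complex I the highest differences were 0.16 ± 0.07 for ND-B16.6, the counterpart of mammalian NDUFA13, and 0.13 ± 0.06 for ND-B14.7, the counterpart of mammalian NDUFA11 (limma adjusted p = 0.297 and 0.298). ND-B16.6 read 12.14 and 11.97 in COX7a RNAi discs, against 11.86 and 11.93 in GFP discs, and the groups did not overlap. The lowest were ND-51L1, a paralog of the NADH-binding subunit gene ND-51, at -0.16 ± 0.14 (limma adjusted p = 0.644), and ND-B17.2, the counterpart of mammalian NDUFA12, at -0.12 ± 0.05 (limma adjusted p = 0.263). The 3 core subunit genes that the annotation names were all positive: ND-75, which carries iron-sulphur clusters, at 0.13, ND-51 at 0.12 and ND-20 at 0.0085. Their median was 0.12, but 0.0098 without the first COX7a RNAi array. None of these passed the test.

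Complexes II and V had the narrowest ranges. SdhB, the iron-sulphur subunit of succinate dehydrogenase, was the highest of complex II at 0.02 and SdhC, a membrane anchor, the lowest at -0.03. In complex V the range ran between -0.05 for ATPsyngamma, which encodes the rotating stalk, and 0.07 for ATPsynCF6, a stalk subunit. ATPsynC, which forms the membrane ring, was at 0.07 and ATPsynbetaL, a paralog of the catalytic subunit gene, at -0.05. The limma adjusted p of these 6 members was 0.522 or higher.

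In the Delta background the hairpin again called none of the 53 members (limma, 3.75% of all genes), with 1 higher and 4 lower at an unadjusted p of 0.05, against 7.66% and 9.5% of all genes. The median difference of Delta with COX7a RNAi against Delta was 0.0033, that of all genes -0.01, and 27 members were positive. The arrays of the groups did not overlap for 7 members that were higher and 8 that were lower, against 20.4% and 25% of all genes. ATPsynepsilonL, named as a paralog of the epsilon subunit, was the lowest at -0.30 ± 0.09 (limma adjusted p = 0.118). It read 7.70 and 7.85 in Delta with COX7a RNAi discs, against 8.00 and 8.15 in Delta discs, and the groups did not overlap. ND-15, a counterpart of mammalian NDUFS5, stood at -0.15 ± 0.06 (limma adjusted p = 0.237), with 11.55 and 11.71 in Delta with COX7a RNAi discs, against 11.73 and 11.82 in Delta discs.

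The highest members in that comparison were ND-75 at 0.15 ± 0.09 (limma adjusted p = 0.447), ND-ACP at 0.11 ± 0.05 (0.274) and Cyt-c1 at 0.11 ± 0.06 (0.375). ND-ACP encodes the mitochondrial acyl carrier protein, which also serves mitochondrial fatty acid synthesis, and Cyt-c1 encodes the haem subunit that hands electrons to cytochrome c. Other probe sets of ND-ACP gave 0.24 and 0.12 (adjusted p = 0.056 and 0.196 in a limma fit over all single-gene probe sets). ND-75 read 10.52 and 10.46 in Delta with COX7a RNAi discs, against 10.31 and 10.37 in Delta discs, without overlap. The other named members were ND-13B at -0.11, SdhC at -0.06, SdhB at 0.07, UQCR-11 at -0.03, ox at -0.01, UQCR-6.4 at 0.04, ATPsyngamma at -0.08, ATPsynbetaL at 0.03 and ATPsynD, a peripheral stalk subunit, at 0.07. Without the second Delta with COX7a RNAi array the median over members was -0.04, and without the first it was 0.05, so a single array set its sign. The tracheal genes averaged 10.06 and 9.85 in Delta with COX7a RNAi discs, against 10.27 and 10.13 in Delta discs, with 0 of 4 called by limma (serp and verm at an unadjusted p of 0.00518 and 0.00554).

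The 2 knockdown comparisons share no array. The sign of the difference was the same in both for 37 of 53 members (69.8%), against 60.1% of all genes tested. Across members the differences correlated with Pearson's r of 0.344 and Spearman's rho of 0.485, against 0.449 and 0.295 across all genes; genes are not independent replicates, and the arrays share a platform and a normalization. ND-75, ND-ACP, Cyt-c1 and UQCR-6.4 were positive and ND-15, ND-B17.2 and UQCR-11 negative in both backgrounds, whereas ox was at 0.23 in the control background and at -0.01 in the Delta background.

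**Figure D2:**
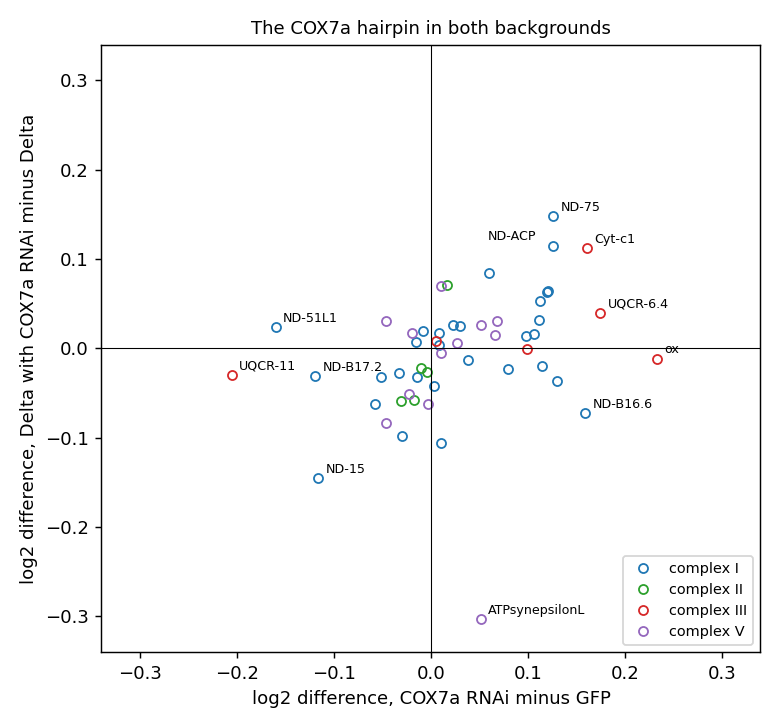
Log2 difference of each tested member for COX7a RNAi minus GFP (x axis) and for Delta with COX7a RNAi minus Delta (y axis), coloured by complex. Most members lie within 0.15 of 0 on both axes; ox lies to the right at 0.23 and ATPsynepsilonL at the bottom at -0.30.

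Averaged over both backgrounds, 0 of 53 members were called (limma, 8.03% of all genes), with 4 higher and 2 lower at an unadjusted p of 0.05 (10.3% and 10.7% of all genes). The median was 0.01, and the range ran between -0.13 for ND-15 and 0.14 for ND-75. The 95% interval lay within a 1.25-fold change for 52 of 53 members (98.1%, against 77.8% of all genes), the exception being UQCR-11. ND-ACP, by its chosen probe set, was at 0.12 (limma adjusted p = 0.0773). Its other probe sets, in a limma fit over all single-gene probe sets, gave 0.21 (adjusted p = 0.0144) and 0.11 (0.0717). The count of 0 did not hold in every fit that left out 1 array, and over these fits the median ran between -0.00207 and 0.0336. The test of whether the hairpin acted differently in the 2 backgrounds called 0 of 53 members (limma, 0.575% of all genes), with 0 higher and 3 lower at an unadjusted p of 0.05, against 3.88% and 6.65% of all genes. The median of this difference of differences was -0.03, that of all genes -0.01, and it was negative for 37 members (16 were positive, 30.2%, against 45.7% of all genes). Without the first Delta with COX7a RNAi array the median was 0.01 and without the second -0.06, and without the first COX7a RNAi array it was -0.0048 and without the second -0.06. Its 95% interval lay within a 1.25-fold change for 39 members (73.6%, against 36.2% of all genes) and reached past it for 14.

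Delta overexpression gave no called member either. In Delta against GFP discs, 0 of 53 members were called (limma, 2.38% of all genes), with 3 higher and 0 lower at an unadjusted p of 0.05 (8.97% and 5.48% of all genes). The median was 0.04, that of all genes 0.02, and 41 members were positive (77.4%, against 58.4%). The 3 highest named members were ATPsynepsilonL at 0.31, ox at 0.23 and ND-51L2, another ND-51 paralog, at 0.19. The ox values were 12.32 and 12.30 in Delta discs, against 12.12 and 12.04 in GFP discs, and ATPsynepsilonL read 8.00 and 8.15 in Delta discs, against 7.76 and 7.78 in GFP discs. Neither pair of groups overlapped. The same held for 27 members that were higher and 5 that were lower, against 32.5% and 19.9% of all genes.

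In discs that carried both transgenes, 2 members rose against GFP and 0 fell by limma, where 7.56% of all genes were called, 4.61% higher. At an unadjusted p of 0.05, 8 were higher and 1 was lower (12.8% and 9.29% of all genes), and the arrays did not overlap for 15 higher and 7 lower members (29.1% and 24.5% of all genes). Cyt-c1 read 12.08 and 12.11 in Delta with COX7a RNAi discs, against 11.89 and 11.82 in GFP discs. The difference was 0.24 ± 0.06 (limma adjusted p = 0.0412), a 1.18-fold change, and the groups did not overlap. ND-ACP read 12.15 and 12.22 in Delta with COX7a RNAi discs, against 12.03 and 11.94 in GFP discs, a difference of 0.20 ± 0.05 (limma adjusted p = 0.0444), again without overlap. The other 2 probe sets of ND-ACP gave 0.37 and 0.12 (adjusted p = 0.00643 and 0.146 in a limma fit over all single-gene probe sets). Of 10 fits with 1 array omitted, 8 lost each of these calls, with limma adjusted p up to 0.255 for Cyt-c1 and 0.287 for ND-ACP; only leaving out a COX7a RNAi array kept them. Without the second Delta with COX7a RNAi array the differences were 0.22 (adjusted p = 0.151) and 0.17 (adjusted p = 0.176), and the median over members was -0.01 in place of 0.03. In this comparison 3 of 4 tracheal genes (Gasp, serp and verm) and 3 of 7 disc genes (Optix, so and toy) were called lower by limma, and their part was not tested.

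Comparisons with Notch intra2 discs gave the other called members. Against GFP, 3 of 53 members were called, 1 higher and 2 lower, where 6.03% of all genes were called higher and 7.11% lower, 13.1% in all. The members' share was thus below the background. Of the 50 uncalled members 37 were negative and 13 positive, with a median of -0.04, while 59.6% of all uncalled genes were positive. At an unadjusted p of 0.05, 2 members were higher and 11 lower, against 15.2% and 13.1% of all genes. The 2 Notch intra2 arrays lay below both GFP arrays for 23 members and above them for 5, which held for 26.5% and 36.9% of all genes.

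ND-15 fell most among the called members. It read 11.47 and 11.50 in Notch intra2 discs, against 11.80 and 11.81 in GFP discs, a difference of -0.32 ± 0.06 or 0.799-fold (limma adjusted p = 0.00747). ND-B17.2 read 11.28 and 11.39 in Notch intra2 discs, against 11.51 and 11.53 in GFP discs, a difference of -0.19 ± 0.05 (limma adjusted p = 0.0389). Both were lower on each Notch intra2 array than on each GFP array, and both encode supernumerary subunits, which surround the catalytic core. ATPsynepsilonL rose, at 8.29 and 8.15 in Notch intra2 discs, against 7.76 and 7.78 in GFP discs, a difference of 0.45 ± 0.09 or 1.37-fold (limma adjusted p = 0.0126). Its Delta arrays, at 8.00 and 8.15, overlapped those of Notch intra2.

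Some fits that left out a single array lost these calls, and such a fit leaves 1 array in a group and has less power. Over the 10 fits the difference ran between -0.335 and -0.311 for ND-15 and between 0.381 and 0.519 for ATPsynepsilonL. For ND-B17.2 it ran between -0.243 and -0.134. The first Notch intra2 array was among those whose omission lost the calls. Without that array ND-15 had -0.31, ATPsynepsilonL 0.38 and ND-B17.2 -0.13, and the median over members was -0.01. Without the second array the median was -0.09. The first array was also the highest of the 10 for the blood cell genes Hml, at 6.44 and 5.58 in Notch intra2 discs, against 5.16 and 5.13 in GFP discs, and Pxn, at 6.54 and 6.04 in Notch intra2 discs, against 5.50 and 5.85 in GFP discs. Their differences were 0.87 and 0.62 (limma adjusted p = 0.0821 and 0.101, unadjusted 0.0143 and 0.02), and their part in the members' values was not tested. ND-15 and ATPsynepsilonL also missed the threshold without either GFP array, and ND-B17.2 without either GFP or either Delta array.

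Other members that the comparison named did not pass the test. UQCR-11 had the lowest value, -0.43 ± 0.15 (limma adjusted p = 0.0988), with 6.25 and 5.93 in Notch intra2 discs, against 6.68 and 6.35 in GFP discs. ND-39, the counterpart of mammalian NDUFA9, had -0.23 ± 0.07 (limma adjusted p = 0.0652), with 11.33 and 11.42 in Notch intra2 discs, against 11.62 and 11.59 in GFP discs. Both groups were separate in each case. In complex V the lowest were ATPsynE at -0.14 (limma adjusted p = 0.0761) and ATPsynF at -0.12 (0.0963), in complex II SdhD, a membrane anchor, at -0.12 (0.163), and in complex III UQCR-Q at -0.11 (0.258). The highest were ATPsynbetaL at 0.16, ND-42, the counterpart of mammalian NDUFA10, at 0.09, SdhCL at 0.09, ND-75 at 0.08, Cyt-c1 at 0.03 and UQCR-14 at -0.03.

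**Figure D3:**
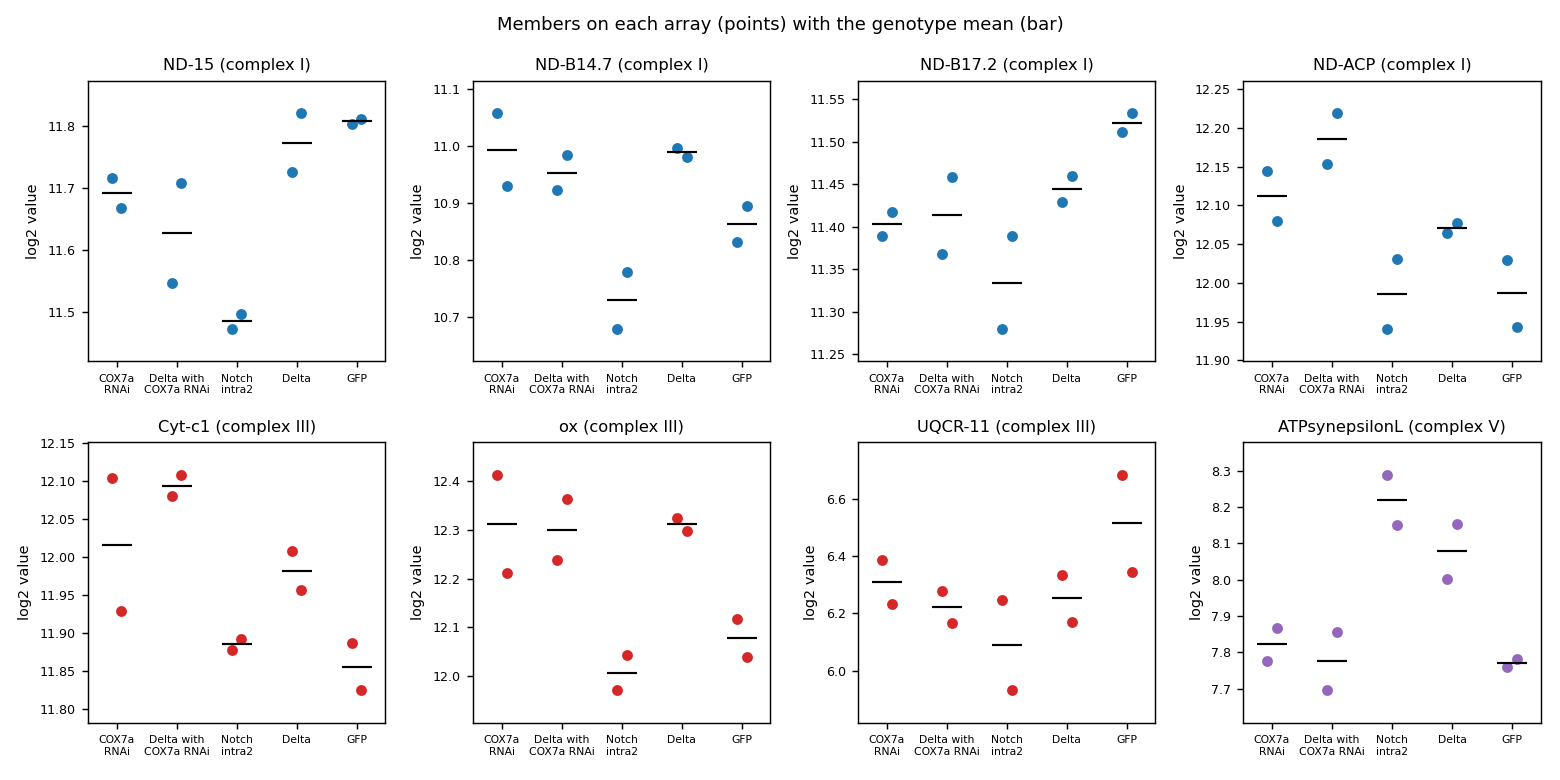
Log2 values (y axis, a separate range in each panel) of 8 members in the 5 genotypes (x axis). Points are the 2 arrays and bars the genotype mean; ND-15 is lowest in Notch intra2 discs at 11.47 and 11.50, and ATPsynepsilonL is highest there at 8.29 and 8.15.

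Against discs that expressed the ligand Delta, 3 members fell and 0 rose in Notch intra2 discs, where 6.3% of all genes were called lower and 3.25% higher, 9.55% in all. The median member difference was -0.09, that of all genes 0.005, and 46 of 53 members were negative. At an unadjusted p of 0.05, 1 member was higher and 17 were lower, against 10.3% and 14.3% of all genes. For 36 members both Notch intra2 arrays lay below both Delta arrays, and for 2 above them, which held for 30% and 28.8% of all genes. This comparison shares its Notch intra2 arrays with the one against GFP and is not independent of it.

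The 3 that fell were ND-15, ND-B14.7 and ox. ND-15 had -0.29 ± 0.06 (limma adjusted p = 0.0176), with 11.47 and 11.50 in Notch intra2 discs, against 11.73 and 11.82 in Delta discs. ND-B14.7 read 10.68 and 10.78 in Notch intra2 discs, against 11.00 and 10.98 in Delta discs, a difference of -0.26 ± 0.06 (limma adjusted p = 0.0256). For ox the values were 11.97 and 12.04 in Notch intra2 discs, against 12.32 and 12.30 in Delta discs, a difference of -0.30 ± 0.07 or 0.81-fold (limma adjusted p = 0.0321). No groups overlapped. For ox the Notch intra2 arrays lay close to the GFP arrays, at 12.12 and 12.04, and for ND-B14.7 the GFP arrays lay between, at 10.83 and 10.89.

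Leaving out either Notch intra2 array ended all 3 calls. Without the first, the differences were -0.28 for ND-15, -0.21 for ND-B14.7 and -0.27 for ox (limma adjusted p = 0.102, 0.153 and 0.169), and without the second -0.30, -0.31 and -0.34 (0.082, 0.055 and 0.0946). The calls of ND-B14.7 and ox were also lost without either Delta array, that of ND-15 without the second Delta array, and that of ox without either GFP array. The median over members was -0.06 without the first Notch intra2 array and -0.13 without the second.

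The lower values in Notch intra2 discs were unevenly spread over the kinds of member. Against Delta, 22 of 23 tested supernumerary subunits of complex I, with ND-MLRQ counted there by its name, were negative, with a median of -0.12. The median of the 3 core subunit genes among the members was -0.004, with ND-75 at 0.03, ND-20 at -0.004 and ND-51 at -0.09. Other core subunit genes of complex I had no member probe set, so this median covers only part of the core. All 6 members of complex III were negative (median -0.16), as were 7 of 7 peripheral stalk and membrane subunits of complex V (median -0.08). The catalytic subunit gene ATPsynbeta and the central stalk genes ATPsyngamma and ATPsyndelta were each at -0.03. The other probe set of ATPsynbeta gave 0.04 and that of ATPsyngamma -0.04. In complex II, SdhB was at -0.0038, SdhC at -0.09, SdhD at -0.12 and the assembly factor gene Sdhaf3 at -0.16. Of the 46 tested members that are not duplicated paralogs 44 were negative (median -0.10), and of the 7 tested paralogs 2 were (median 0.09). Apart from ATPsynepsilonL at 7.93, these paralogs had low mean signals, between 4.79 and 5.66 against a floor of 4.66. Signals this low limit what their differences can show. Without the first Delta or the second Notch intra2 array the paralog median turned to -0.02 and -0.0041, and without the first Notch intra2 array the core median of complex I turned to 0.04. Against GFP, 20 of 23 supernumerary subunits of complex I were negative (median -0.07) and the core median was 0.02; without the first Notch intra2 array 14 supernumerary subunits were negative (median -0.03). The differences between these kinds of member were not tested.

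For 15 members both Notch intra2 arrays were the 2 lowest of the 10 (28.3%, against 12.1% of all genes). These were ND-13A, ND-15, ND-39, ND-B14, ND-B14.7, ND-B22 and ND-MLRQ of complex I, SdhD and Sdhaf3 of complex II, UQCR-Q of complex III, and ATPsynB, ATPsynD, ATPsynE, ATPsynF and ATPsynO of complex V. In mammals the counterpart of ND-MLRQ has since been assigned to complex IV, and here it read 13.59 and 13.65 in Notch intra2 discs, 13.74 and 13.73 in Delta discs and 13.66 and 13.66 in GFP discs.

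**Figure D4:**
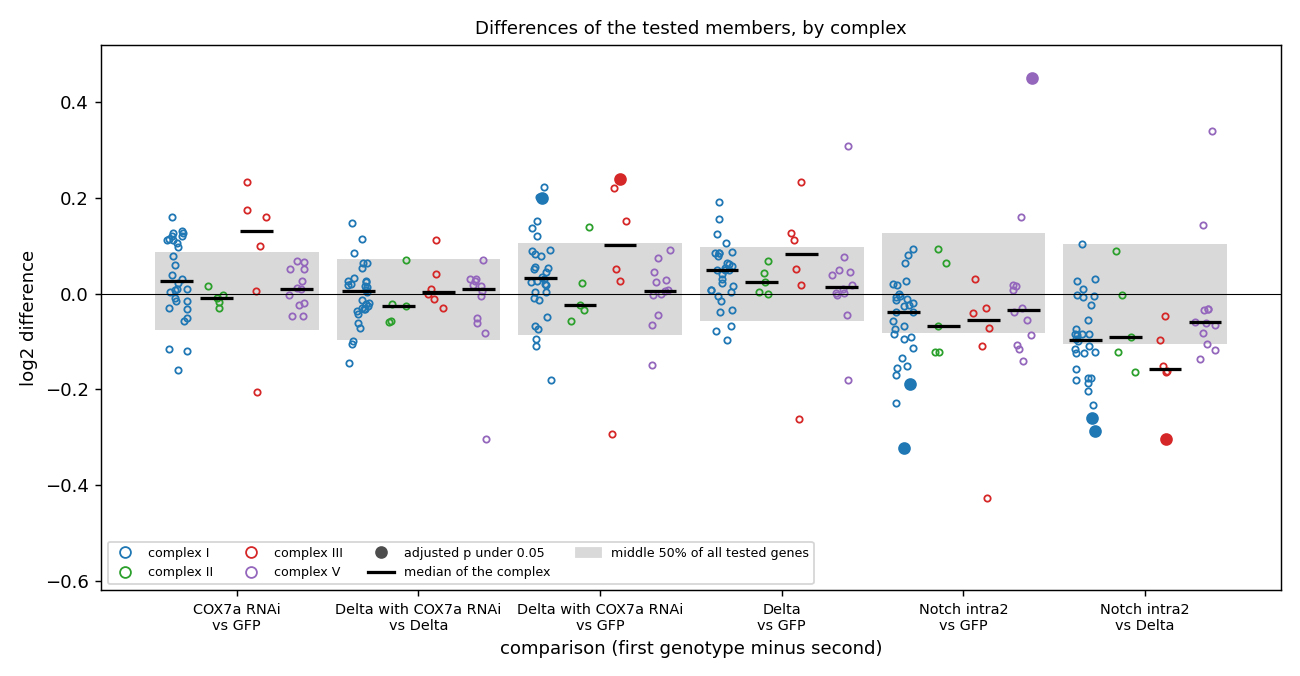
Log2 differences (y axis) of the 53 tested members in 6 comparisons (x axis), by complex. Filled points have an adjusted p under 0.05, bars are the median of the complex and the grey band spans the middle 50% of all genes tested; in Notch intra2 against Delta the medians of all 4 complexes lie below 0, complex III lowest at -0.16.

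A test of any difference among the 5 genotypes called 4 of 53 members (limma F test, 18.7% of all genes): ATPsynepsilonL (adjusted p = 0.0206), ND-15 (0.0231), ox (0.0317) and ND-B14.7 (0.0404). Their arrays spanned 0.59, 0.35, 0.44 and 0.38 log2 units. All 4 calls were lost without either Notch intra2 or either GFP array. The number of members called also depended on the Delta arrays and on those that carry the hairpin.

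**Figure D5:**
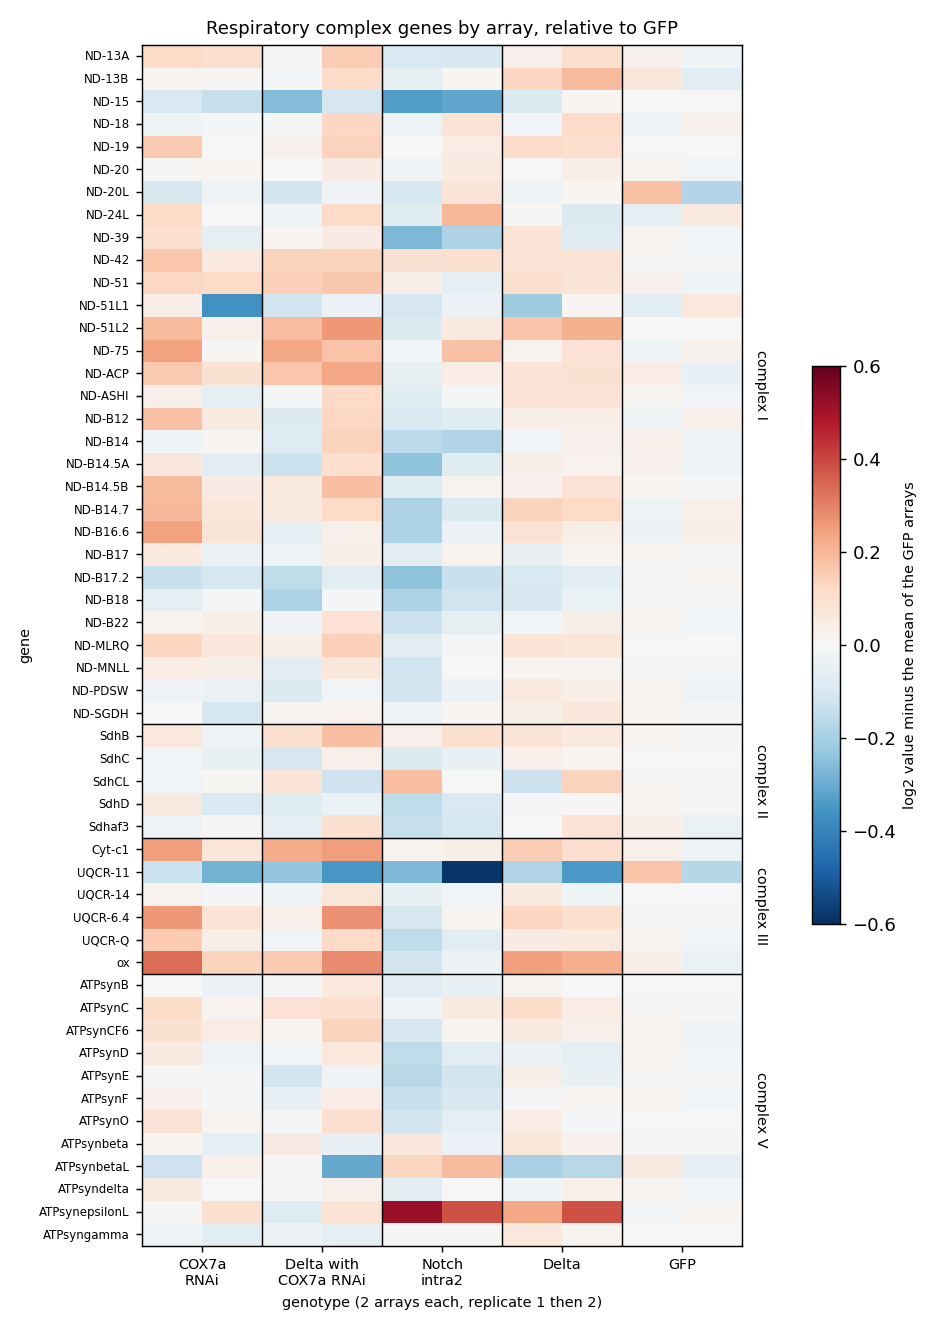
Log2 value of each tested member (rows, grouped by complex) on each array (columns, replicate 1 then 2 within a genotype) minus the mean of the GFP arrays, as colour. The left Notch intra2 column is blue for most rows, and ATPsynepsilonL is red in the Notch intra2 and Delta columns.

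A fixed list of 4 genes of the same complexes outside the naming rule, not all such genes, stayed uncalled in every comparison. The 4 were RFeSP (the Rieske iron-sulphur protein of complex III), Cyt-c1L, blw (the alpha subunit of complex V) and sun (its epsilon subunit). By limma 0 of 4 were called in each of the 8 comparisons, which called between 0.575% and 13.1% of all genes. At such shares 0 of 4 shows little. RFeSP was at 0.23 in Delta with COX7a RNAi against GFP (adjusted p = 0.0856) and at -0.12 in Notch intra2 against Delta (0.322). The gene sun was at -0.15 in Notch intra2 against GFP (limma adjusted p = 0.221), where its paralog ATPsynepsilonL rose. In Notch intra2 against GFP discs, where limma called 6.03% of all genes higher, 2 of 9 tested genes for assembly or regulation of the complexes rose. They were Bcs1, whose product inserts the Rieske protein into complex III (0.20 ± 0.05, limma adjusted p = 0.0323), and TFAM, which packages and transcribes mitochondrial DNA (0.18 ± 0.04, limma adjusted p = 0.0354). Bcs1 also rose against Delta (0.24 ± 0.05, limma adjusted p = 0.0211), and no gene of that list was called in the other 6 comparisons. Their direction was opposite to that of most members in the same discs.

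Some markers of other cell types also differed between Notch intra2 discs and Delta or GFP discs. The mean log2 value over 7 muscle genes was 7.33 and 7.27 in Notch intra2 discs, 9.04 and 8.17 in Delta discs and 8.51 and 8.29 in GFP discs, and 3 of the 7 (Act87E, Mp20 and TpnC73F) were called lower against both. Over 4 tracheal genes it was 9.44 and 9.64 in Notch intra2 discs, 10.27 and 10.13 in Delta discs and 10.31 and 10.23 in GFP discs, with 2 of 4 called lower against both. Over 3 glial genes it was 8.87 and 8.57 in Notch intra2 discs, 9.78 and 9.63 in Delta discs and 9.96 and 9.79 in GFP discs, with 2 of 3 (repo and moody) called lower against both. Of 7 disc genes, ey and toy were called higher (0.37 and 0.40) and Optix and Dll lower (-0.75 and -2.46) against GFP by limma, and ey, toy and so higher (0.42, 0.56 and 0.25) and Optix and Dll lower (-0.39 and -2.06) against Delta. The antennal gene Dll read 7.42 and 7.06 in Notch intra2 discs, against 9.66 and 9.73 in GFP discs. The tracheal gene btl lay near the floor on all arrays, the other tracheal, glial and muscle genes above it, and their part in the lower values of the members was not tested. Fat body genes averaged between 4.84 and 5.16 over 3 genes on all arrays, close to the floor. Of 4 blood cell genes, eater lay below the floor on all arrays and was not tested, and the mean over the 4 was 5.56 and 4.98 in Notch intra2 discs, 5.14 and 4.71 in Delta discs and 4.69 and 4.80 in GFP discs. No fat body, blood cell or neuronal gene was called by limma in the 8 comparisons. At an unadjusted p of 0.05 only Hml and Pxn passed in Notch intra2 against GFP, and Pxn in Notch intra2 against Delta (0.61, limma adjusted p = 0.123).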

How the data were processed

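Expression was measured on 10 arrays, 2 per genotype. The deposited values are log2 values per probe set. The submitters' processing notes name Transcriptome Analysis Console 3.0.0.466, RMA and Affymetrix Expression Console, and the role of each is not given in the sources used here. RMA makes the arrays' distributions alike, so a shift shared by most genes would be removed. Of 18952 probe sets, 183 were controls. Of the rest, 13647 had 1 gene symbol in the platform annotation (402 had several, 4720 none), and the brightest probe set, by its mean over the 10 arrays, stood for a gene. Of the members' probe sets, 66 had a single gene, and 2 that list several symbols were left out. Each genotype had 1 mean in a limma 3.58.1 fit (R 4.3.3), with 5 residual degrees of freedom, eBayes with an intensity trend, and two-sided Benjamini-Hochberg adjusted p-values over 8702 genes at 0.05. With 2 arrays per genotype the spread is estimated over all 5 genotypes together, and the number of arrays limits precision. The fit was tested on simulated data. Named genes were every called member and, per complex, the 2 highest and 2 lowest (complex II 1 each) in both knockdown comparisons and in Notch intra2 against GFP, with called genes of the pathway lists; the rule's highest and lowest levels are not named, since probe sets do not rank genes; members named beyond that were chosen after their values were seen. Members, lists and tests were chosen with earlier results of these data known. Alternatives were a floor at the 60th percentile or none, eBayes in its robust form or without a trend, a replicate block, fits limited to the compared groups, 2 other scalings, the mean of all probe sets, and each array left out in turn. Detection calls and scan dates were not used here. Mitochondrially encoded subunits and cytochrome c genes were not analysed here.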

Additional observations from a re-analysis of the deposited data

How the results depend on the processing

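None of the called members changed sign under the alternatives run. The count of members called was 1 in place of 0 for the knockdown averaged over both backgrounds with the mean of all probe sets. Over all genes that setting called 696 of 8564, against 699 of 8702 in the main fit. For Delta against GFP 1 member in place of 0 was called in a fit on the compared groups alone. For Notch intra2 against GFP the count of members was 8 in place of 3 in a fit on the compared groups alone. Counts over all genes for fits on the compared groups are not given here. For Notch intra2 against Delta the count of members was 1 in place of 3 without an intensity trend and 9 with each array centred on its median. Over all 8702 genes these settings called 700 and 955, against 831 in the main fit. For Delta with COX7a RNAi against GFP the count of members was 1 in place of 2 without a filter, 0 without a trend and 0 in a fit on the compared groups alone. Over all genes 578 of 11982 were called without a filter and 485 of 8702 without a trend, against 658 in the main fit. Any genotype difference was called for 1 member in place of 4 without a trend, where 1345 of 8702 genes were called, against 1625 in the main fit. The cause was not tested.

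Deviations of same-numbered replicates correlated between -0.225 and 0.376 over pairs of genotypes, highest between COX7a RNAi and Delta with COX7a RNAi. The main fit did not pair the samples, and these values do not settle whether same-numbered samples belong together. With the replicate number as a block, 1 member in place of 2 was called for Delta with COX7a RNAi against GFP (ND-ACP at limma adjusted p = 0.0606). Over all 8702 genes the block called 667 there, against 658 in the main fit. The other counts of members stayed within 1.5 times.

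With each array left out in turn, members called ranged between 0 and 2 for COX7a RNAi against GFP, 0 and 2 averaged over both backgrounds, 0 and 5 for Notch intra2 against GFP, 0 and 4 for Notch intra2 against Delta, 0 and 4 for Delta with COX7a RNAi against GFP, and 0 and 7 for any difference. The median member difference ranged between 0.0033 and 0.0529 for COX7a RNAi against GFP, -0.0402 and 0.0513 for Delta with COX7a RNAi against Delta, -0.00207 and 0.0336 averaged, -0.0631 and 0.0128 for the interaction, 0.0244 and 0.0403 for Delta against GFP, -0.089 and -0.0148 for Notch intra2 against GFP, -0.13 and -0.0624 for Notch intra2 against Delta, and -0.0127 and 0.0866 for Delta with COX7a RNAi against GFP.

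The median for Notch intra2 stayed negative under both other scalings, at -0.0542 and -0.0317 against GFP and -0.132 and -0.0621 against Delta. That of Delta with COX7a RNAi against Delta was -0.00352 with centred arrays.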
